A study of Homo sapiens with 36 samples.

Results

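SCAF4 and SCAF8 are related proteins that bind RNA and the C-terminal domain of RNA polymerase II (RNAPII) and are related to the yeast termination factors Nrd1 and Seb1. The study asked where they bind transcripts in relation to the choice of polyA sites. The sites described here are the places in the transcriptome where PAR-CLIP found both of them. Clusters, the stretches of crosslinked reads that a peak caller reports, were merged over the 3 SCAF4 IP and 3 SCAF8 IP lists wherever same-strand clusters had 1 nt or more in common. Of 77186 merged regions, 14903 held clusters of at least 2 SCAF4 and at least 2 SCAF8 lists. The 3892 of these that overlapped no same-strand cluster in any of 9 input lists or 3 control IP lists are called shared sites. They made up 26.1% of the 14903 regions and 5.04% of all merged regions. Presence in the lists chose the sites, so it is described below without a test, except in replicates left out of the definition.

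The study expressed FLAG-SCAF4 or FLAG-SCAF8 in HEK293 Flp-in T-Rex cells, a human embryonic kidney line with a site for inserting a single inducible transgene, and used the parental HEK293 Flp-in T-Rex cells as the control. All lines had the CRISPR status WT, so the cells with a tagged protein also kept both of their own SCAF genes, and FLAG IP recovered the tagged copy. Every culture received 100 uM 4-thiouridine (4SU) overnight and a 2 h pulse of 500 uM, followed by 2000 J/m2 of 365 nm light, and the labels give 100 ng/mL doxycycline overnight for both FLAG lines and none for the control line. The study's methods differ from the labels here, with another dose and with doxycycline also for the control line. IP and 1% input RNA of the soluble and the chromatin fraction was sequenced in 3 replicates, and the authors pooled both fractions of the 36 samples into 18 lists. The labels do not say how the replicates were grown, so p-values measure only the spread between lists. The lists hold no expression levels, so the cell line could not be checked against marker genes.

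In PAR-CLIP, 4SU is built into RNA as it is made and crosslinks to bound proteins under long-wave ultraviolet light, and the crosslinked base is later read as C in place of T. A cluster therefore marks RNA that was close to protein, and input clusters mark abundant or easily crosslinked RNA irrespective of the IP. The CTD-interacting domain of SCAF4 and SCAF8 recognises the phosphorylated repeats of the largest RNAPII subunit, and a separate RNA recognition motif contacts the transcript.

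The sequences below show what a shared site looks like. Each is the stretch covered by every supporting list, read from GRCh38 on the transcribed strand, 5′ to 3′, with T for U. Capitals mark 3 motif groups, searched on that strand only. They are CGG or CGA, the CAG pentamers (CCAGC or CCAGG or GCAGC or GCAGG), and CTCC or CACC. These groups were taken from the study, which reported them as overrepresented in its binding sites from the same data. Matches of different groups can overlap. RPL7A (chr9:133348932-133349040, + strand, exon 2 of 8), MRE11 (chr11:94447230-94447357, − strand, exon 15 of 20), SETD1A (chr16:30966242-30966368, + strand, exon 8 of 19) and HELLS (chr10:94592235-94592311, + strand, exon 16 of 22) are coding sites among the 12 with clusters in all 6 lists and the highest scores. ALMS1 (chr2:73426469-73426547, + strand, exon 6 of 23) is another of the 12 and holds none of the motifs.
RPL7A: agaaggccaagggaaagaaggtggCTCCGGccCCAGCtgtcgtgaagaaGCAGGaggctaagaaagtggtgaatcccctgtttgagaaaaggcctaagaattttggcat
MRE11: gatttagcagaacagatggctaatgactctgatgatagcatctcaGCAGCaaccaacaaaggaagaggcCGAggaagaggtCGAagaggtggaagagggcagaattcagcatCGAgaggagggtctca
SETD1A: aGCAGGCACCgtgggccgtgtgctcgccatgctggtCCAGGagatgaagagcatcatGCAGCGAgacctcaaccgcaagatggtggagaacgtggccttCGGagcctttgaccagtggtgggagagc
HELLS: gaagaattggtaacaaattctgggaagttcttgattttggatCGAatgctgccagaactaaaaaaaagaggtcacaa
ALMS1: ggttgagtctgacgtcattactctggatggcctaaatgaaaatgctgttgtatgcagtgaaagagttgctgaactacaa

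The next 4 sequences show how shared sites lie across exon borders and introns, and sites in genes that the study names. The CTBP1 stretch (chr4:1228204-1228402, − strand) starts with 59 nt of intron 3 and goes on with 140 nt of the next exon, so it spans a 3′ splice site. The DNAJC12 stretch (chr10:67811476-67811583, − strand) starts with 60 nt of exon 3 of 5 and ends with 48 nt of intron, so it spans a 5′ splice site. The USP15 stretch (chr12:62294191-62294304, + strand) lies within exon 2 of 22 and holds none of the motifs. The DNAJB6 stretch (chr7:157368409-157368471, + strand) lies within intron 5, between exons of its canonical isoform.
CTBP1: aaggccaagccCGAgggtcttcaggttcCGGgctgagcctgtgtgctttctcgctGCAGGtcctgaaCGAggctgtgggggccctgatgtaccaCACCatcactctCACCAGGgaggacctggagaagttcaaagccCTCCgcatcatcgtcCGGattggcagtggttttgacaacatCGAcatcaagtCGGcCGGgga
DNAJC12: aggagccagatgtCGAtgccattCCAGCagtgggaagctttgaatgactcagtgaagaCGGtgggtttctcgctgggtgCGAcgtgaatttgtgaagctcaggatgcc
USP15: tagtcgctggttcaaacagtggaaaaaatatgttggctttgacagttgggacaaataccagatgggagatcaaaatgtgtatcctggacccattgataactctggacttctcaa
DNAJB6: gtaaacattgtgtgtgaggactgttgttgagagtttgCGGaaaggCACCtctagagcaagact

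Support by the lists was uneven. Of the 3892 shared sites, 1826 (46.9%) held clusters of exactly 2 lists of each protein, 1001 (25.7%) of 3 SCAF4 and 2 SCAF8 lists, 503 (12.9%) of 2 SCAF4 and 3 SCAF8 lists, and 562 (14.4%) of all 6 lists. Among regions free of input and control IP overlap, those just outside the rule were 3672 with 2 SCAF4 lists and 1 SCAF8 list, 1322 with 1 SCAF4 list and 2 SCAF8 lists, 1100 with 3 and 1, and 191 with 1 and 3. SCAF4-only sites, with at least 2 SCAF4 lists and 0 SCAF8 lists, numbered 5658, and SCAF8-only sites, with at least 2 SCAF8 lists and 0 SCAF4 lists, numbered 1503. These serve as the comparison sets below.

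**Figure D1:**
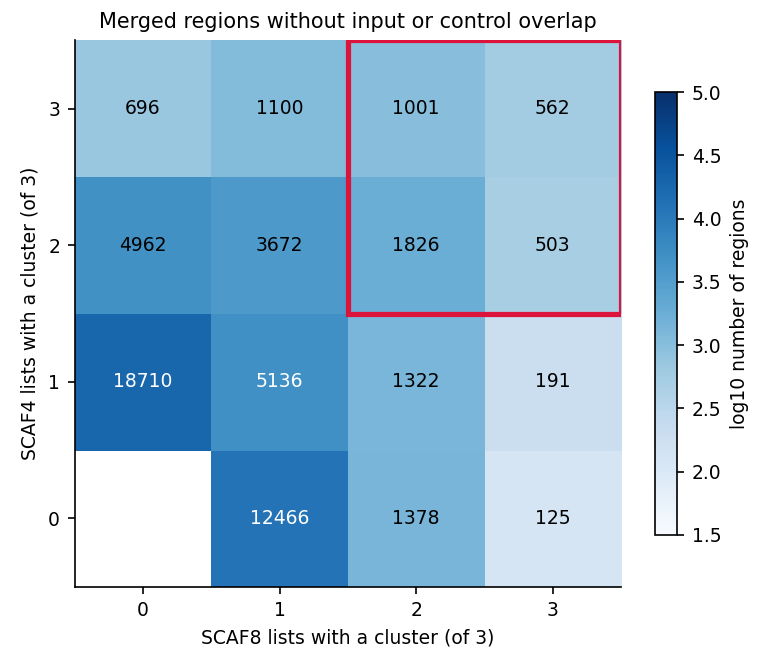
Number of merged regions without input or control IP overlap, by the number of SCAF4 lists (y axis, of 3) and SCAF8 lists (x axis, of 3) with a cluster, coloured by log10 of the number. The red frame encloses the 3892 shared sites, and most regions outside it rest on 1 list.

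The longest lists supplied most of the support. SCAF4 IP replicate 1 had a cluster in 1972 shared sites (50.7%), replicate 2 in 3829 (98.4%) and replicate 3 in 3546 (91.1%), and these lists held 18991, 54404 and 33962 clusters. SCAF8 IP replicate 1 had a cluster in 2529 sites (65.0%), replicate 2 in 2602 (66.9%) and replicate 3 in 3718 (95.5%), with 25189, 18287 and 41502 clusters. The shares thus ran close to the order of list length, and the commonest pattern of support was replicates 2 and 3 of both proteins without replicate 1, in 843 sites (21.7%). Read depth is unknown, because the lists hold no read counts. Intervals given for shares are exact Clopper-Pearson 95% intervals and cover counting error only.

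Within a shared site, the clusters of the proteins lay on top of each other. Shared sites had a median length of 211 nt (quartiles 163 and 282, range 70 to 1136), and 161 were longer than 500 nt. A base covered by at least 2 SCAF4 and 2 SCAF8 lists existed in 3788 sites (97.3%), so 104 were joined only through chains of overlap. In 3696 sites (95.0%), at least 1 base was covered by every supporting list, with a median stretch of 101 nt. Of the 562 sites with clusters in all 6 lists, 528 had a base covered by all 6, with a median stretch of 103 nt.

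The mean SCAF8 midpoint differed from the mean SCAF4 midpoint by a median of 0.167 nt in the direction of transcription. The median absolute offset was 12 nt, and the offset was within 25 nt in 75.2% of the sites. For pairs of lists, the median absolute offset ranged from 13.5 to 16 nt over 6 pairs of the same protein and from 13.5 to 16.5 nt over 9 pairs of a SCAF4 and a SCAF8 list. The median overlap, as a share of the span of both clusters together, ranged from 74.4 to 78.1% over the pairs of the same protein and from 72.7 to 77.5% over the others. Clusters of the proteins were therefore offset by about as much as clusters of replicates of the same protein. The rule requires overlap, so these values describe the sites and were not tested.

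The median length of clusters inside shared sites was 147, 165 and 148 nt in SCAF4 IP replicates 1, 2 and 3, and 151, 134 and 150 nt in the SCAF8 replicates. The SCAF4 values were a mean of 8.33 nt longer, and the groups overlapped (two-sided exact permutation test, p = 0.6, n = 3 lists each, with 0.1 as the smallest possible p). Without replicate 2, which holds both the longest and the shortest of these medians, the difference was −2.25 nt. Clusters of the same lists outside the sites had medians of 127 to 137 nt. Scores did not set the sites apart, since the median within-list percentile was 48.1 to 52.6 inside and 48.6 to 52.6 outside them.

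Whether shared sites recur in a replicate that had no part in choosing them was asked by defining the sites from the remaining 2 replicates, with the inputs and control IPs of those replicates as filters. Of 3538 shared sites of replicates 2 and 3, 54.4% had a cluster in SCAF4 IP replicate 1 (95% interval 52.8 to 56.1) and 54.5% in SCAF8 IP replicate 1 (52.8 to 56.1). Of 1329 shared sites of replicates 1 and 3, 96.4% had one in SCAF4 IP replicate 2 (95.2 to 97.3) and 54.1% in SCAF8 IP replicate 2 (51.4 to 56.8). Of 856 shared sites of replicates 1 and 2, 88.2% had one in SCAF4 IP replicate 3 (85.8 to 90.3) and 89.5% in SCAF8 IP replicate 3 (87.2 to 91.5). Recovery was high in the lists with many clusters and close to 54% in the 3 shortest lists.

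Shared sites were recovered more often than sites of 1 protein. In the left-out SCAF4 IP replicates 1, 2 and 3, SCAF4-only sites were recovered at 20.5, 84.8 and 60.5%, and in the left-out SCAF8 IP replicates, SCAF8-only sites at 23.8, 19.6 and 63.4%. Recovery of shared sites exceeded these values by a mean of 27.4 percentage points (SD 8.43, range 11.6 to 34.5, n = 6 lists), and it did so in 6 of 6 lists (exact sign flips, two-sided, p = 0.03125, which is the minimum with 6 lists). A shared site is defined by 4 clusters and a site of 1 protein by 2, and the part of this difference that the stricter definition makes was not tested.

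Sites of 1 protein were also looked up in the left-out lists of the other protein. In the left-out replicates, SCAF8-only sites had a cluster of the SCAF4 IP in 7.36, 42.9 and 18.8% of cases, and SCAF4-only sites had a cluster of the SCAF8 IP in 15.4, 10.4 and 45.2%. Within a left-out list, sites of its own protein were recovered more often than those of the other protein, by a mean of 22.1 percentage points (SD 15.6, range 8.44 to 41.8, n = 6 lists). Absence from the other protein's lists defined these sites, so this is a description. The SCAF8-only sites of replicates 1 and 3 were found more often in the longest list, SCAF4 IP replicate 2 (42.9%), than in SCAF8 IP replicate 2 (19.6%).

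The shared sites were also looked up in the left-out control IP and input lists. Control IP replicates 1, 2 and 3 had a cluster in 20.4, 1.20 and 1.75% of the shared sites, and they held 9638, 2314 and 1621 clusters. The left-out inputs had one in 1.20 to 14% of the shared sites. Replicate 1, which was sequenced with longer reads, had the highest share in the control IP and in the inputs of the SCAF4 and the control line. Each of the 6 SCAF lists exceeded the control lists of its own replicate. This is a description, because the definition required SCAF clusters and excluded control IP and input clusters in the remaining 2 replicates. The control IP and input lists were also shorter than every SCAF list.

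**Figure D2:**
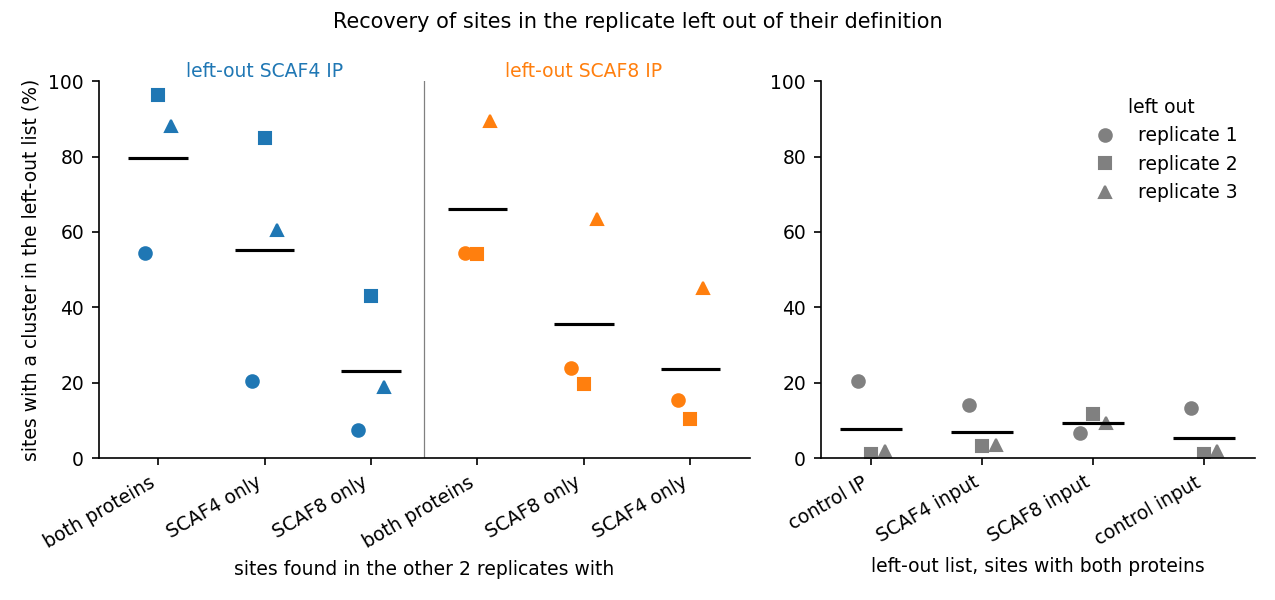
Share of sites with a cluster in the replicate left out of their definition (y axis, %), for left-out SCAF4 IP and SCAF8 IP lists by the kind of site (left) and for left-out control IP and input lists in shared sites (right). Symbols are the 3 replicates and lines their means, and sites of both proteins lie above sites of 1 protein in every left-out SCAF list.

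The filters removed most regions found with both proteins. Of the 14903 regions, 10307 overlapped an input cluster and 6596 a control IP cluster, with 5892 overlapping both. Regions that overlapped clusters of at least 5 inputs numbered 3713, and 1760 overlapped exactly 1 input and no control IP. Shared sites still lay in the neighbourhood of input clusters. An input cluster of the same strand was found within 100 nt of 148 sites (3.80%), within 1000 nt of 1071 sites (27.5%) and within 10000 nt of 68.3%, with a median distance of 3438 nt. A control IP cluster was found within 1000 nt of 13.8%. The absence of an input cluster therefore says that none was called, and what the unknown input depth adds to it was not tested.

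Shared sites were mainly exonic and coding. By the Ensembl canonical isoform, 2308 of the 3892 midpoints (59.3%, 95% interval 57.7 to 60.8) were in coding sequence, 148 (3.80%) in a 5′ UTR, 169 (4.34%) in a 3′ UTR and 148 (3.80%) in a noncoding exon. The first intron held 285 (7.32%) and later introns 614 (15.8%), while 37 were in the 2000 nt upstream of a gene, 48 in the 2000 nt downstream and 135 (3.47%) outside genes. Of all sites, 88.4% were in the body of a protein-coding gene, and 308 midpoints fell in 2 or more genes of the strand.

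As whole regions, shared sites often crossed exon borders. Of the 3672 sites in gene bodies, 1026 (27.9%, 95% interval 26.5 to 29.4) spanned both a 5′ and a 3′ splice site, 794 (21.6%) a 5′ splice site only and 446 (12.1%) a 3′ splice site only. Another 764 (20.8%) lay within an exon and 596 (16.2%) within an intron. Both splice sites were spanned by 16.0% of the SCAF4-only sites, 5.08% of the SCAF8-only sites and 7.08% of 13456 recurrent input regions, merged regions of at least 2 input lists. Longer regions span more borders, and shared sites were merged over more clusters, so these shares describe the regions and the fixed windows below are the comparison.

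Along genes, shared sites were spread over the whole length. The median position in protein-coding genes was 50.1% of the way from the 5′ to the 3′ end of the canonical isoform, introns included. From 5′ to 3′, successive stretches of 20% of the length held 24.8, 16.4, 18.5, 18.6 and 21.7% of 3440 sites. Intronic shared sites leaned to the 5′ end, with 32.4% of 815 in the first such stretch. Exonic shared sites had 24.4% of 2625 in the last stretch, near the 24.6% of the SCAF4-only sites, while 50.4% of the exonic SCAF8-only sites and 49.2% of the exonic recurrent input regions were there. In genes with several exons, the last exon held 12.3% of the exonic shared sites and 42.9% of the exonic SCAF8-only sites.

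To compare location without the merging, each IP list served as its own control. Clusters inside shared sites were set against the other clusters of the same list that overlapped no input and no control IP cluster, for 10 measures of location and sequence that the rule did not use, with Benjamini-Hochberg adjustment over the 10. Each gene was represented by its longest spliced isoform. Splice sites, base composition and motifs were read in 100 nt around the cluster midpoint. The lists have their shared sites in common, so their differences are not independent, and the p-values measure only how evenly the lists differ. An adjusted p of 0.0446 arises when 7 measures are at the smallest p of the exact test. These calls stand or fall together, and all were lost under 2 alternatives given in the closing section.

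Clusters inside shared sites were more often exonic. In SCAF4 IP replicates 1, 2 and 3, 82.3, 78.5 and 79.5% of the clusters inside shared sites that lay in genes were exonic, against 73.5, 65.7 and 68.5% of the other clusters. In the SCAF8 replicates, the shares were 80.7, 79.4 and 78.3%, against 57.9, 62.5 and 60.1%. The ranges inside and outside the sites did not overlap. The difference was 15.1 percentage points (SD 5.18, range 8.80 to 22.8, n = 6 lists, exact sign flips, two-sided, p = 0.03125, the smallest possible, adjusted p = 0.0446). It was 10.9 points in the SCAF4 and 19.3 points in the SCAF8 lists without overlap of the 2 groups, and exact permutation of the protein labels gave the smallest possible p of 0.1. By the rule, clusters inside the sites come from the same regions in all lists, and their shares ranged only from 78.3 to 82.3%. The comparison of the proteins therefore rests on the other clusters.

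Within exons of protein-coding genes, clusters inside shared sites were in coding sequence in 69.6, 68.9 and 69.8% of cases in the SCAF4 lists and in 69.7, 70.3 and 69.4% in the SCAF8 lists. The other clusters had 67.0, 66.0 and 69.3% and 54.4, 59.9 and 57.3%. Exons of protein-coding genes whose longest isoform has no coding sequence counted as not coding. The remainder is therefore not a UTR share, and UTR shares by the canonical isoform are given above. The difference was positive in 6 of 6 lists, with a mean of 7.29 percentage points (SD 6.07, range 0.529 to 15.3, exact sign-flip permutation test, adjusted p = 0.0446). It was 1.98 points in the SCAF4 lists and 12.6 points in the SCAF8 lists (exact permutation test, p = 0.1, the smallest possible), so the margin was narrow in all 3 SCAF4 lists. Against only those other clusters that lay in genes with a shared site, the coding difference was 4.99 points, and it did not pass the test (exact sign-flip permutation test, adjusted p = 0.134). Counted over regions, the coding share was 69.5% in shared, 71.2% in SCAF4-only and 47.3% in SCAF8-only sites, and 41.2% in recurrent input regions. A high coding share was thus not particular to shared sites.

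Splice sites, the borders where introns are cut out, were spanned more often inside shared sites than in the other clusters of the lists. The window around the midpoint spanned a 5′ splice site in 14.3% of the clusters inside the sites (SD 1.58, n = 6 lists) and in 11.6% of the others, a difference of 2.69 percentage points (range 0.670 to 5.85, above 0 in 6 of 6 lists, exact sign-flip permutation test, adjusted p = 0.0446). For 3′ splice sites, the shares were 12.3% (SD 1.27) and 9.80%, a difference of 2.55 points (range 0.142 to 4.34, 6 of 6 lists, exact sign-flip permutation test, adjusted p = 0.0446). Counted over regions in genes, with the same window, shared sites were close to SCAF4-only sites. Shares in shared, SCAF4-only and SCAF8-only sites and recurrent input regions were 12.9, 12.4, 7.34 and 4.30% for 5′ splice sites. They were 13.6, 13.7, 6.88 and 3.62% for 3′ splice sites. Both differences between clusters inside and outside the sites were smaller in some sets of sites redefined from fewer lists. The 5′ splice site difference was 0.978 points in the 1120 sites defined without replicate 2 of both proteins and 0.346 in the 733 sites defined without replicate 3, and the 3′ splice site difference was 0.528 and 1.35 points.

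Early polyA sites were approached through annotated transcript ends within a gene, away from the last 500 nt of the gene itself. Such an end lay within 200 nt downstream of the midpoint for 10.4% of the clusters inside shared sites (SD 0.382, n = 6 lists) and 8.60% of the others (SD 0.582). The difference of 1.82 percentage points was above 0 in 6 of 6 lists (range 1.06 to 2.66, exact sign-flip permutation test, adjusted p = 0.0446). It was 1.41 points in the SCAF4 and 2.23 points in the SCAF8 lists, and the groups overlapped (exact permutation test, p = 0.3). Counted over regions, the share was 10.4% in shared, 8.56% in SCAF4-only and 6.33% in SCAF8-only sites, and 9.41% in recurrent input regions. Regions with both proteins that overlapped at least 5 inputs had 11.6%. Those removed by the control IP alone had 10.3%, and those removed by 1 input list alone 10.2%. The measure therefore did not set shared sites apart from removed regions. An annotated transcript end need not be used in these cells, and use of the ends was not measured here.

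**Figure D3:**
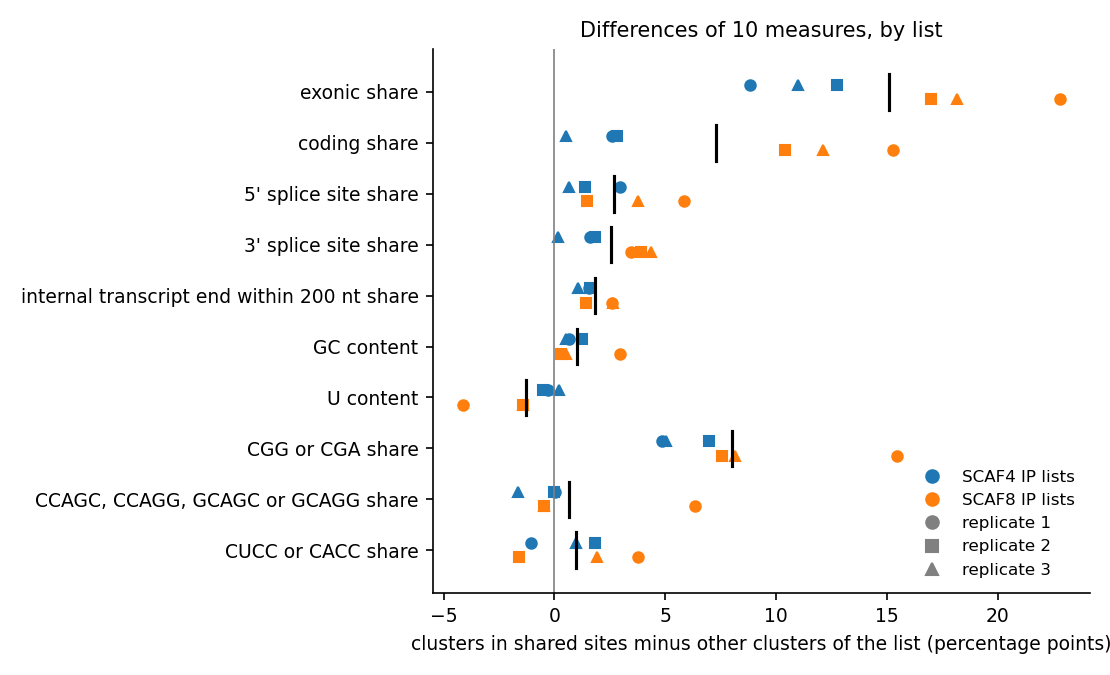
Difference between clusters inside shared sites and the other clusters of the same list (x axis, percentage points) for 10 measures (y axis), with 1 symbol for each SCAF4 IP list (blue) and SCAF8 IP list (orange) and a line at the mean of the 6 lists. Values for exonic share lie between 8.80 and 22.8 points, and values for U content lie mostly below 0.

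CGG and CGA were more frequent in shared sites. The motif groups came from the study's own motif search in clusters of these same data. A difference in them is therefore not independent support for the motifs, and its p-value measures only how evenly the lists differ. The 100 nt around the midpoint held CGG or CGA in 76.0, 75.6 and 76.7% of the clusters inside shared sites in the SCAF4 lists and in 74.0, 76.7 and 75.8% in the SCAF8 lists. The other clusters had 71.2, 68.6 and 71.7% and 58.6, 69.2 and 67.7%. The difference was 8.01 percentage points (SD 3.88, range 4.85 to 15.5, above 0 in 6 of 6 lists, exact sign-flip permutation test, adjusted p = 0.0446). The value outside the sites in SCAF8 IP replicate 1 stood below those of the other lists. Values inside the sites, which come from the same regions by the rule, ranged from 74.0 to 76.7%. Counted over regions, 75.2% of the shared sites held CGG or CGA, against 72.0% of the SCAF4-only sites, 65.2% of the SCAF8-only sites and 56.7% of the recurrent input regions. Regions with both proteins that were removed by the control IP alone had 76.7%, so a high share was not particular to shared sites.

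The other motif groups did not pass the test in these windows. A CAG pentamer was held by 46.4% of the clusters inside shared sites (SD 1.47, n = 6 lists) and 45.8% of the others, and the difference was above 0 in 2 of 6 lists (exact sign-flip permutation test, adjusted p = 0.938). CUCC or CACC was held by 51.5% (SD 1.08) and 50.5%, with a difference above 0 in 4 of 6 lists (exact sign-flip permutation test, adjusted p = 0.312). By region, the first group was found in 47.1% of the shared sites, 47.8% of the SCAF4-only sites, 42.0% of the SCAF8-only sites and 35.8% of the recurrent input regions. The second was found in 53.6, 50.3, 50.9 and 41.5%. When whole clusters were searched, both differences passed the test, at 4.60 and 4.62 points, and clusters inside shared sites were the longer ones in every list.

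G and C made up 51.4% of the windows inside shared sites and 50.3% of the others, a difference of 1.03 percentage points (SD 0.996, range 0.298 to 2.96, above 0 in 6 of 6 lists, exact sign-flip permutation test, adjusted p = 0.0446). The largest value was that of SCAF8 IP replicate 1, and the difference was 0.444 points without replicate 3 of both proteins. U content was 23.4% inside and 24.6% outside the sites, lower in 5 of 6 lists by a mean of 1.26 points, and it did not pass the test (exact sign-flip permutation test, adjusted p = 0.0781). The exception was SCAF4 IP replicate 3, at 23.0% inside and 22.7% outside.

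Around the midpoint, base composition changed over a short distance. In the 20 nt bin just downstream of the midpoint, shared sites had 51.9% G and C, against 49.0% in the bin farthest upstream, 480 to 500 nt away. U fell from 26.7% in that farthest bin to 22.7% at 20 to 40 nt downstream. SCAF4-only sites had a similar profile, with U at 21.8% at 20 to 40 nt. SCAF8-only sites had 26.6% U there and 26.5% in the farthest upstream bin, so U did not fall between these bins. In recurrent input regions U fell from 28.5% to 27%, a shallow dip. These profiles are a description of the regions.

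**Figure D4:**
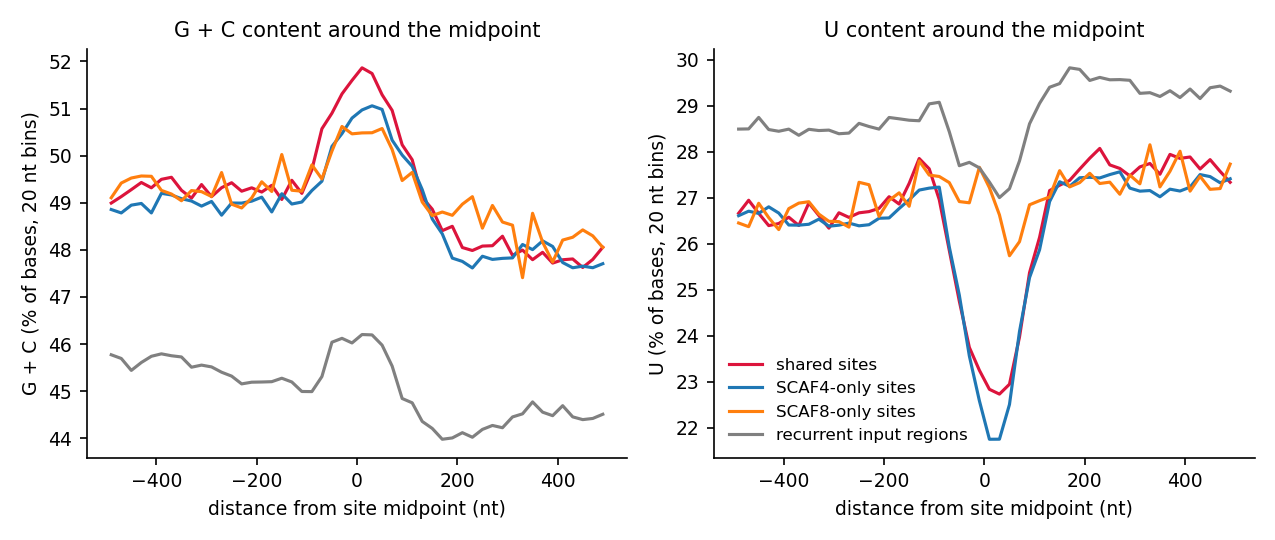
Share of G and C (left) and of U (right) in 20 nt bins within 500 nt of the site midpoint (x axis, nt, transcribed strand), for shared sites, SCAF4-only sites, SCAF8-only sites and recurrent input regions. Shared sites reach 51.9% G and C and 22.7% U next to the midpoint, and the dip in U is seen in shared and SCAF4-only sites.

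All 256 tetramers were compared in the same windows, as a description without a test. The log2 ratio of the frequency inside shared sites to that in the other clusters was above 0 in all 6 lists for 59 tetramers and below 0 in all 6 for 47. The highest mean was that of GCGA, at 0.46 (range 0.27 to 0.85), with 1.93 per 1000 positions inside and 1.43 outside the sites. CGAA (0.44), CGAC (0.44), ACGA (0.42) and UCGA (0.40) followed, and all of these hold CGA. The lowest were UUAG (−0.44), UUUU (−0.43), UAGG (−0.41), UAGU (−0.39) and UGUA (−0.36). Tetramers with CG but without CGA were also raised, such as CGCG (0.38), GACG (0.35) and UUCG (0.35), and CGAU was lower, at 0.26. The rise was thus spread over CG-containing tetramers and was not particular to CGA. U-rich and UAG-containing tetramers were the rarest relative to the other clusters.

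Among sites with more support, composition changed little. CGG or CGA was held by 75.5% of the sites with 4 lists, 74.5% of those with 5 and 76.2% of those with 6, and by 73.9% of 4994 regions just outside the rule, with exactly 2 lists of 1 protein and 1 of the other. The exonic share was 75.8, 81.7 and 81.0% for 4, 5 and 6 lists and 73.7% just outside. Of the 3713 regions with both proteins that overlapped at least 5 inputs, 63.2% held CGG or CGA, and 40.7% of their exonic midpoints in protein-coding genes were in coding sequence. That coding share was 68.6, 69.6 and 72.0% in shared sites with 4, 5 and 6 lists. It was 69.0% in the 704 regions removed by the control IP alone and 65.4% in the 1760 removed by 1 input list alone. CGG or CGA was held by 76.7 and 70.2% of these regions, in that order, and 84.0 and 76.5% were exonic. These measures therefore did not set shared sites apart from regions removed by the control IP alone.

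Shared sites were found in 2407 of the 11459 genes that held an IP cluster (21%). They accounted for 3757 of the 3892 sites, and 1677 genes (69.7%) held a single one. At least 2 were found in 730 genes, at least 3 in 303 and at least 5 in 75, with a maximum of 13. Sites of the same gene share its RNA and are not independent. Genes with 2 or more held 55.4% of the assigned sites, and of 1350 pairs of neighbouring sites in a gene, 200 (14.8%) were within 1000 nt and 62 within 200 nt, with a median gap of 6301.5 nt. The 2216 protein-coding genes with a shared site had a median isoform length of 4106.5 nt and 13 exons, against 3341.5 nt and 9 exons for the other protein-coding genes with IP clusters.

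The 20 genes with the most shared sites held 7 to 13 each. SRCAP, the ATPase that places the histone variant H2A.Z, held 13 of its 22 regions with both proteins as shared sites. POLE, the catalytic subunit of DNA polymerase epsilon, kept 12 of 31. GCN1, which activates the kinase GCN2 when ribosomes stall, kept 12 of 23. TRRAP, an adaptor of histone acetyltransferase complexes, kept 11 of 15, FANCA of the Fanconi anemia core complex 11 of 26, and the chromatin regulator ANKRD11 11 of 49. The sites of SRCAP and POLE ran along most of both genes.

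SRCAP lies on the + strand of chromosome 16 (30698209 to 30741409). Its first shared site fell upstream of the canonical isoform, 8 were coding, 3 intronic and 1 in the 3′ UTR. Inside the isoform they ran from 20.1 to 97.1% of its length, and 2 of the 13 had clusters in all 6 lists. POLE lies on the − strand of chromosome 12 (132623753 to 132687376), with 7 coding and 5 intronic sites at 18.9 to 96.9% of its length. Of the 12 POLE sites, 6 had clusters in all 6 lists, more than in any other of the 20 genes with the most shared sites.

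PRKDC, the catalytic subunit of DNA-dependent protein kinase, kept 9 of 40 regions, 7 of them coding and 4 with all 6 lists. DNMT1, the maintenance DNA methyltransferase, kept 9 of 24, and RAD54L, a motor protein of homologous recombination, kept 8 of 10, of which 7 were coding. ATAD2, a bromodomain ATPase, kept 8 of 12. DDX11, a DNA helicase with near-identical copies in the genome, kept 7 of 17, and reads could have been placed at either copy.

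UBR4 kept 9 of 28 regions and HUWE1 8 of 21, both being ubiquitin ligases. MDN1, an ATPase of ribosome assembly, kept 8 of 13, all exonic. NUP85, of the nuclear pore, kept 7 of 13. With its 3 intronic sites counted, it had the most sites for its spliced length among the 20, 3.28 per kb. AKT2 (7 of 18), ZNF638 (7 of 15), TRIO (7 of 22), PRRC2B (7 of 32) and DNAAF5 (7 of 11) each held 7. In ANKRD11 and DNAAF5 the sites were mainly intronic, with 9 of 11 and 6 of 7.

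**Figure D5:**
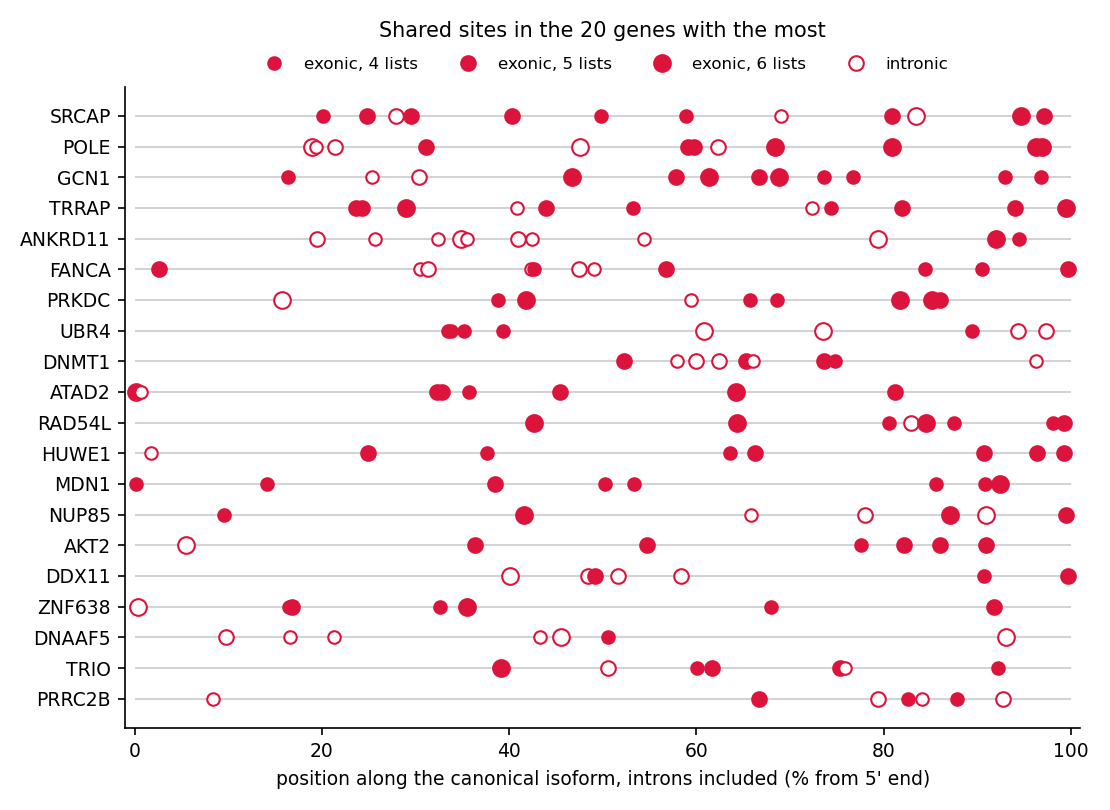
Positions of shared sites along the canonical isoform (x axis, % from the 5′ end, introns included) in the 20 genes with the most shared sites, with filled points for exonic and open points for intronic midpoints, and point size by the number of lists. Sites of SRCAP run from 20.1 to 97.1% and sites of POLE from 18.9 to 96.9%, and those of ANKRD11 and DNAAF5 are mainly intronic (the upstream site of SRCAP is not drawn).

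The 18 gene lists differed in how many of their genes held shared sites, and the 6 lists with the highest shares are given here. Of genes with an IP cluster, at least 1 shared site was found in 9 of 10 MLL and SET1 methyltransferases, 5 of 6 PI3K-related kinases, 8 of 11 giant ubiquitin ligases, 14 of 21 core spliceosome proteins, 14 of 22 CHD and SWI/SNF remodelers and 14 of 25 nucleoporins, against 21% of all genes with an IP cluster. KMT2A and KMT2C held 5 each, KMT2B 4, and SMG1, the kinase that phosphorylates UPF1 in nonsense-mediated decay, also 4. PRPF6 of the U4/U6.U5 snRNP held 5, NUP133 and TPR of the nuclear pore 5 each, and CHD2 5. Median exon numbers of these 6 lists were 16 to 74, and those of the remaining lists 5 to 23. The part of the shares that goes with exon number was not tested.

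Groups of abundant RNAs held many regions with both proteins, of which few were kept. Cytoplasmic ribosomal proteins kept 22 of 262 regions (8.40%), hnRNP proteins 20 of 207 (9.66%) and SR splicing factors 8 of 74 (10.8%), against 26.1% of all regions with both proteins. A shared site was found in 15 of 75 ribosomal protein genes, 11 of 23 hnRNP genes and 6 of 12 SR genes. HNRNPUL1 held 5, RPL7A 3, and SRSF7 and SRSF11 2 each. The intronic members included all sites of RPL3, RPS19, HNRNPD and SRSF7, with 2 each. Translation initiation factors kept 25 of 154 regions (16.2%), with 5 in EIF4G1, the scaffold of cap-dependent initiation, and 2 in EIF3C, which has a near-identical copy.

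Lists of transcription and 3′ end formation ran from below the background of 21% to 42.1%. A shared site was found in 11 of 31 transcription elongation genes (35.5%), 4 of 11 genes of RNAPII subunits, 8 of 19 cleavage and polyadenylation genes (42.1%), 3 of 9 genes of CTD-interacting domain proteins and 2 of 13 Integrator genes (15.4%). SUPT5H, a subunit of the elongation factor DSIF, and RECQL5 held 3 each, CPSF7 of cleavage factor I 3 and CPSF6 2, POLR2E 3 and POLR2A, the largest subunit of RNAPII, 1. Of the CTD-interacting domain proteins, RPRD1B and CHERP held 3 each and SCAF1 1. Dynein and dynactin genes had a site in 3 of 13, with 6 in DYNC1H1, nonsense-mediated decay genes in 5 of 10 and TOR complex components in 3 of 6.

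SCAF4 and SCAF8 themselves held 0 shared sites. SCAF4 had 4 regions with clusters of both proteins and SCAF8 had 10, and all were removed by the filters. The FLAG lines also carry a transgene copy of 1 of these genes, so clusters there cannot be assigned to the endogenous or the transgene RNA.

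Of 9 genes taken from those that the study names for early polyA site usage, 4 held shared sites, against 21% of all genes with an IP cluster. With 9 genes this was not tested. HP1BP3, which the study also names, was outside the rule for named genes and was added after its values were seen, and it kept 3 of 7 regions as shared sites. The DNAJC12 site, over the end of exon 3, had clusters of 171, 133 and 195 nt in SCAF4 IP replicates 1, 2 and 3 and of 143 and 218 nt in SCAF8 IP replicates 1 and 3. Its score percentiles ran from 6.99 in SCAF4 IP replicate 2 to 93.2 in SCAF8 IP replicate 3, so its rank was not stable over the lists. USP15, a deubiquitinase, held 2 sites in exons 2 and 3, each in 5 lists. The exon 2 site had percentiles of 4.06 to 14.2, all low, with cluster lengths of 114 to 125 nt that ended within 3 nt of each other. AKAP13 held 1 coding site in exon 7 with only 5 nt in every supporting list, and DNAJB6, a chaperone of the DnaJ family, 1 in intron 5 with clusters of SCAF4 IP replicates 1 and 2 and SCAF8 IP replicates 2 and 3. ZC3HAV1, RAD51C, COX10, CNTLN and BCL11A had no region with at least 2 lists of each protein. For ZC3HAV1 this differs from the study, which reports a SCAF4 and SCAF8 cluster over its alternative last exon. ZC3HAV1 held 2 IP clusters here, and the study chose its clusters by other criteria than the rule. The study reports such a cluster for DNAJC12 too, and the position of the DNAJC12 site relative to that alternative exon was not compared.

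The 12 sites with all 6 lists and the highest mean score percentile included those in RPL7A, POLE, PRKDC, MRE11, CTBP1, EXOSC2, SETD1A, HELLS, KMT2A, YBX1 and ALMS1. Of the 12, 11 midpoints were coding, and the CTBP1 midpoint was intronic. The RPL7A site had score percentiles of 99.5, 99.0 and 96.2 in SCAF4 IP replicates 1, 2 and 3 and of 95.2, 85.3 and 93.2 in the SCAF8 replicates. RPL7A and YBX1 have processed copies elsewhere in the genome, and reads that match several places were reported at 1 of them.

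Clusters at MRE11, a nuclease of double-strand break repair, had percentiles of 90.8, 96.7 and 95.3 in the SCAF4 lists and 85.4, 76.1 and 94.0 in the SCAF8 lists, and 5 of the 6 clusters had the same 3′ end, at 94447230. Those at SETD1A, a histone H3K4 methyltransferase, had 93.2, 85.3 and 90.0 and 77.2, 96.1 and 71.2. Both sites ranked high in every list. YBX1, a cold-shock RNA-binding protein, had 99.3, 22.9 and 93.5 and 93.0, 98.8 and 91.7, so that SCAF4 IP replicate 2 stood far below the others. ALMS1, a protein of the centrosome, had 81.3, 98.7 and 93.5 and 90.3, 65.6 and 67.4. The score has no name in the lists, so only its rank in each list was used.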

How the data were processed

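PAR-CLIP clusters of FLAG-SCAF4, FLAG-SCAF8 and control HEK293 Flp-in T-Rex cells were analysed in 18 deposited lists (6 SCAF IP, 9 input, 3 control IP). Per the study's methods, the authors trimmed reads with Trim Galore and cutadapt, aligned them to GRCh38 with Bowtie2 2.2.9 and removed duplicates with Picard. Reads of the soluble and chromatin fraction were pooled for each replicate, and PARalyzer called clusters from reads with T→C transitions. The deposited score of a cluster is unnamed and was used as a rank. The lists hold no read counts, so depth is unknown and thresholds could not be changed. List lengths ranged from 18287 to 54404 clusters for the SCAF IPs, 4567 to 12493 for the inputs and 1621 to 9638 for the control IPs.

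Clusters were merged and filtered by the rule given in the report with Python 3.11.15, numpy 2.4.6, scipy 1.17.1, pysam 0.24.0 and matplotlib 3.10.9, taking starts as counted from 0. Genes came from GENCODE 44, with 2000 nt of flank. A midpoint was assigned to a protein-coding gene first, then to a gene with a symbol, then to the shorter. Descriptions used the Ensembl canonical isoform, and the 10 tested measures the longest spliced isoform. In 2770 of 20046 protein-coding genes that isoform has no coding sequence. Tests were two-sided exact sign flips over 6 lists or exact permutations of 3 against 3, with Benjamini-Hochberg adjustment over 10 measures and a threshold of 0.05. Code was tested on simulated data. The named genes were the 20 with the most sites, the 12 sites with 6 lists and the highest mean score percentile, up to 4 genes of each of 18 gene lists, SCAF4, SCAF8 and genes named by the study, apart from a few items that are not reported here. The members, gene lists and tests were chosen with earlier results of these data known. Alternatives included the overlap, the score, the isoform, the input filter, the set of other clusters and leaving out each replicate.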

Additional observations from a re-analysis of the deposited data

How the results depend on the processing

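The number of shared sites, 3892, was 562 when all 3 lists of each protein were required, 15313 with at least 1 list of each, and 674 with clusters whose score reached the list's median. Without replicates 1, 2 or 3 of both proteins it was 733 to 2258, the lowest without replicate 3. It was 3897 with a merging overlap of at least 10 nt, 3788 with a base in 2 lists of each protein, and 5652 with at most 1 input list.

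With a replicate left out, 4 lists allow no p under 0.125, so no measure could pass. Differences ranged from 12.6 to 16.0 points for exonic share, 6.17 to 6.87 for coding share, 0.346 to 3.33 for 5′ splice sites, 0.528 to 3.38 for 3′ splice sites, 1.43 to 2.35 for internal transcript ends, 0.444 to 1.35 for GC content, and 6.62 to 8.10 for CGG or CGA. The CUCC or CACC difference ranged from −1.39 to 1.78, changing sign without replicate 3. Recovery in left-out replicates ranged from 25 to 29.6 points (shared against the same protein alone) and 18.2 to 27.7 (same against other protein). The alternatives for recovery were added after seeing the data, as was the longest isoform with a coding sequence.

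With only clusters whose score reached the list's median, the differences were 8.01 points for exonic share, 4.89 for coding share, 1.97 for 5′ and 3.82 for 3′ splice sites, 1.01 for internal transcript ends, 1.30 for GC content and 7.82 for CGG or CGA, and none passed after adjustment. Against other clusters only in genes with a shared site, they were 19.1, 4.99, 1.78, 1.72, 1.92, 0.933 and 7.99 points, and again none passed, while CUCC or CACC (−0.197) and the CAG pentamers (−1.15) changed sign. In both settings exonic share, internal transcript ends, GC content and CGG or CGA stayed above 0 in 6 of 6 lists at the smallest p, 0.03125. Their adjusted p rose to 0.0521 and 0.0781 because fewer of the 10 measures reached that p. With whole clusters searched, the CAG pentamers (4.60) and CUCC or CACC (4.62) passed. Among 57 further pairs of a result and such an alternative, the tested results kept their direction and side of the threshold.

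For cluster length, the SCAF4 minus SCAF8 difference of 8.33 nt had p = 1 with the replicate number as a block (exact permutation, 0.25 the smallest possible p), and it ranged from −2.25 to 17.25 nt without a replicate. The replicate block changed no call. Replicate numbers were not used to pair lists elsewhere, since each list was its own control. Unknown depth, uneven list lengths and 6 lists that have their sites in common limit every value.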
